A study of Mus musculus with 912 samples.

Results

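The nuclei described here are 192 single nuclei of the dentate gyrus (DG) that carried both ARC and FOS protein after mice had been placed in 2 environments in turn. Each mouse spent 15 min in environment A, 4 h in the home cage, and then 15 min either in A again (A>A) or in a different environment C (A>C), and the hippocampus was taken 1 h later. All mice were C57BL6 females, aged 8.85 or 9 weeks in A>A and 8.7 weeks in A>C, except that 1 nucleus of A>C mouse 14 is listed at 9 weeks. DG nuclei were sorted with antibodies to PROX1 and CTIP2, and each nucleus was made into its own SmartSeq2 library, a full-length RNA-seq protocol. Nuclei with at least 4000 genes above 1 on the log2(TPM+1) scale were kept, where TPM is a transcript level corrected for gene length and scaled to the total of the nucleus. This left 178 of the 192 nuclei, out of 912 nuclei in the whole series. The A>A group kept 130 of 144 nuclei from 6 mice and the A>C group kept 48 of 48 nuclei from 2 mice.

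ARC and FOS are products of immediate early genes (IEGs), which neurons transcribe within minutes of activity. FOS protein is short-lived, whereas ARC protein lasts for hours, so a nucleus with ARC and FOS may have responded to the second environment alone or to both. IEG mRNAs such as Fos and Junb encode transcription factors and decline quickly, while a later wave of genes, Sorcs3 and Blnk among them, is present hours after the first experience. The comparison therefore asked whether DG nuclei activated by a return to the same environment held different mRNAs from nuclei activated by a new one.

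The 6 A>A mice fell into 3 sets by a set code in the labels, which do not say what the code stands for. Mice 15 and 16 formed set X160622, mice 24 and 25 set X170525, and mice 26 and 27 set X021618. Both A>C mice, 13 and 14, came from set X160619. No set held both conditions, so set and context cannot be told apart. For this reason the main results are given by mouse, with the differences among the 3 A>A sets beside the difference between contexts. In sums over nuclei, fewer nuclei with an mRNA and less of it in each nucleus cannot be told apart, so shares of nuclei are given where they matter.

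Total counts of the kept nuclei ranged from 187733 to 4425356. The median per mouse was 768241.5 and 807578 in mice 15 and 16, 716435 and 772992 in the A>C mice, and 1703855 to 2287327 in mice 24 to 27. The A>C mice thus had depths near those of mice 15 and 16 and below those of the other A>A mice (exact permutation p = 0.179, BH-adjusted p = 0.5). The median number of genes per nucleus was 5210 ± 308 in A>A (SD, n = 6) and 5090 ± 134 in A>C (SD, n = 2). Both A>C medians, 4995 and 5184, lay within the A>A range of 4907 to 5656. The difference of means did not stand out among the 28 splits of the mice (2-sided exact permutation test, p = 0.75, BH-adjusted p = 0.821 over 7 measures). Counting every gene with any count above 0, the medians were 7067 ± 191 and 6288 ± 121 and the mice did not overlap (exact permutation p = 0.0357, the smallest this design allows, BH-adjusted p = 0.125). With counts thinned to 100000 per nucleus they were 3948 ± 280 and 3896.5 ± 122 (exact permutation p = 0.929). The median share of reads that aligned was 31.3% ± 7.46 in A>A and 22.4% ± 2.29 in A>C (exact permutation p = 0.214, BH-adjusted p = 0.5).

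Of the sort markers, Prox1 mRNA was found in most nuclei and Bcl11b mRNA in few. Prox1, the transcription factor that specifies granule cells, was above 1 in 14 to 22 nuclei of each A>A mouse and in 24 and 23 of the 24 nuclei of the A>C mice. Its mean level lay between 4.23 and 5.75 in A>A mice and at 6.72 and 6.00 in A>C mice, so the groups did not overlap, but the edgeR fold change was small (log2 -0.44 ± 0.25 SE, adjusted p = 0.933). Bcl11b, which encodes CTIP2, was above 1 in 9, 3, 3, 8, 2 and 6 nuclei of mice 15, 16, 24, 25, 26 and 27 and in 5 and 3 of the A>C mice, with means per mouse from 0.40 to 1.84. Summed over the 8 DG markers, the mean TPM was 1050 to 1910 in A>A mice and 1734 and 1797 in A>C mice. Zbtb20, a granule and pyramidal cell repressor, was the most abundant in all 8 mice. Its mean TPM was 452 to 861 in A>A and 1020 and 969 in A>C, without overlap. Among 7 DG markers with a mean of at least 0.5, 2 were lower in A>A without overlap and 0 higher, beside 3.27% and 4.91% of all genes. In edgeR fold changes, 4 of the 8 were above 0 and 4 below, with a median of 0.005.

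Markers of other cell types were present at lower levels. Of the 9 interneuron markers, 1 to 3 were at 0 in each A>A mouse and 4 and 2 in the A>C mice, and their summed TPM was 205 to 575 in A>A and 319 and 396 in A>C. Oligodendrocyte markers summed to 111 to 467 in A>A and to 168 and 80.2 in A>C. Astrocyte markers summed to 38.4 to 485 and to 112 and 140, with Aldoc the most abundant throughout. The A>A and A>C values of these 3 lists overlapped. The 5 CA1 pyramidal markers did not overlap, at 21.1 to 63.0 in A>A and 12.1 in both A>C mice, with 1 or 2 of them at 0 in each A>A mouse and 3 at 0 in each A>C mouse. Their most abundant gene was Wfs1, Fibcd1 or Mpped1. The 1 CA1 marker with a mean of at least 0.5 ran the other way, at 0.28 to 0.60 log2(TPM+1) in A>A and 0.90 and 0.77 in A>C. In counts summed per mouse, 3 of the 4 CA1 markers tested with edgeR had a fold change above 0. At an unadjusted p under 0.05, 2 were higher and 0 lower, beside 2.7% and 1.73% of all genes. DESeq2 called 2 of them higher. The part of other cell types in the results below was not tested.

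Across all genes, no difference between A>A and A>C passed the threshold. Of 17877 genes tested with edgeR on counts summed per mouse, 0 had an adjusted p under 0.05 (0.0%). At an unadjusted p under 0.05, 483 genes were higher in A>A (2.7%) and 309 were lower (1.73%). DESeq2 on the same sums called 633 higher and 103 lower, and limma on the mean log2(TPM+1) per mouse called 0. The median fold change over all genes was 0.17 on the log2 scale (A>A over A>C). This shift was 0.47 over 20475 genes without A>C mouse 13 and 0.45 over 20464 genes without A>C mouse 14, and 0.02, 0.02 and 0.04 for the sets of mice 15 and 16, 24 and 25, and 26 and 27 against A>C. Fold changes below are to be read against the shift of their own fit.

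The A>A sets were also compared with each other and with A>C in a fit with a term for each set. At an unadjusted p under 0.05, 4.43% of genes (792) passed between contexts in the fit of 6 against 2 mice. In the fit by set, of 2 against 2 mice, 7.77% (1389) passed between mice 15 and 16 and mice 24 and 25, and the other pairs of A>A sets gave 5.51% (985) and 8.66% (1549). Against A>C, the sets of mice 15 and 16, 24 and 25, and 26 and 27 gave 4.61% (824), 7.23% (1293) and 6.72% (1201). The 2 fits differ in form, so their counts are not compared directly. No gene passed the adjusted threshold in any of these 6 contrasts with edgeR, while DESeq2 called between 876 and 1614 genes in each. These contrasts share mice and are not independent of each other.

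Most genes of the early response had lower values after the same environment, although none passed the adjusted threshold with edgeR. The early list was drawn from nuclei of other mice of the series. It holds genes changed 1 h after a single exposure and not at 4 h or 5 h. Of the 252 genes tested, 181 had a fold change below 0 and 71 above, with a median of -0.27 on the log2 scale beside 0.17 for all genes, of which 58.3% were above 0. Without A>C mouse 13 the early median was -0.11, beside 0.47 for all genes. At an unadjusted p under 0.05, 10 were lower and 0 higher, against 1.73% and 2.7% of all genes. DESeq2 called 4 of them lower, beside 0.648% of the 15898 genes it tested.

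The same list was examined for genes whose mice did not overlap between contexts. Among 250 early genes with a mean of at least 0.5, 38 had all 6 A>A mice below both A>C mice (15.2%), and 0 had all A>A mice above. Over the 10902 genes measured in this way the shares were 3.27% lower and 4.91% higher. With counts thinned to 100000 per nucleus, 42 early genes were lower without overlap (16.8%, beside 3.48% of all genes).

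The mean of the 250 early genes was 3.50 and 3.61 log2(TPM+1) in mice 15 and 16, 3.79 and 3.86 in mice 24 and 25, and 2.87 and 3.01 in mice 26 and 27. In the A>C mice it was 4.18 and 3.80. Mice 24 and 25 thus lay beside A>C mouse 14, and mice 26 and 27 lay lowest. For reference, the early mean was 2.22 and 2.30 in 2 home-cage mice and 4.56 in the 1 mouse with FOS+ nuclei taken 1 h after a first exposure. It was 1.99 to 2.64 in A>A and 2.54 to 2.55 in A>C nuclei sorted as ARC+FOS-. Home-cage and 1 h nuclei come from a separate table, so these levels are only a guide.

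**Figure D1:**
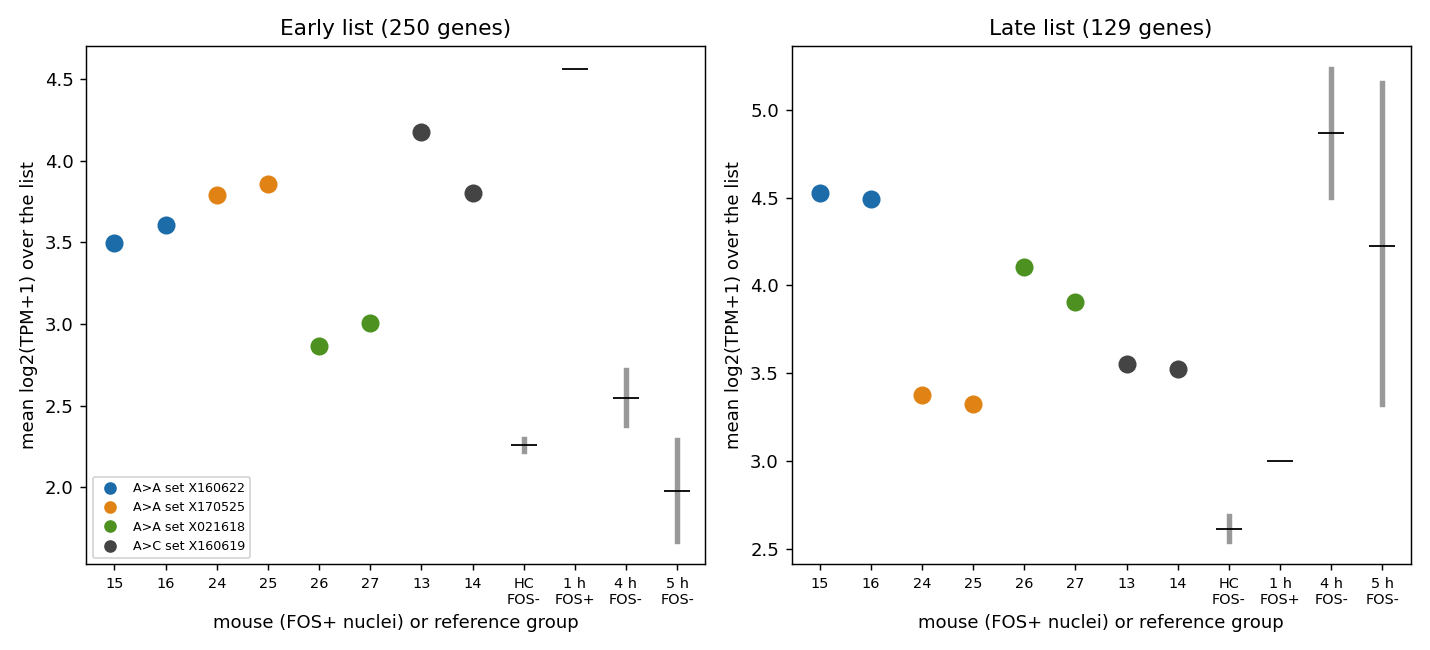
Mean log2(TPM+1) over the early list (left, 250 genes) and the late list (right, 129 genes) in ARC+FOS+ nuclei of each mouse, coloured by set, beside reference groups (grey bar, lowest to highest mouse; black line, mean). Mice 24 and 25 lay near the A>C mice in both lists, while mice 15, 16, 26 and 27 were lower in the early and higher in the late list.

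The 4 early genes with the largest difference in mean level among those without overlap are described by their values and were chosen after these were seen. Mest, an imprinted gene of the hydrolase family, was at 3.28, 4.53, 6.04, 4.28, 1.65 and 3.01 in mice 15, 16, 24, 25, 26 and 27 and at 6.72 and 7.65 in A>C. Ndel1, a dynein regulator, was at 3.19 to 5.06 in A>A and at 6.39 and 7.26 in A>C. Ccl27a, a chemokine with near-identical copies in the mouse genome and so of uncertain count, was at 3.09 to 5.13 in A>A and at 6.21 and 6.53 in A>C. All A>A mice were below both A>C mice for these genes. Etv3, an ETS transcription factor, was at 2.86 to 6.10 in A>A and at 6.72 and 8.08 in A>C, again without overlap. The fold changes from summed counts were smaller, at -1.14 ± 0.56 for Mest, -0.88 ± 0.43 for Ndel1, -1.25 ± 0.45 for Ccl27a and -0.53 ± 0.36 for Etv3 (log2 ± SE, edgeR adjusted p of 0.933 or more). Without A>C mouse 14, Ndel1 was at -0.55, Ccl27a at -0.82 and Etv3 at -0.33.

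Pcsk1, an early gene that encodes a prohormone convertase, was among the genes with no overlap, at 1.69 to 3.10 in A>A and 3.19 and 3.65 in A>C. Gtf3c1, a late gene that encodes a subunit of the RNA polymerase III factor TFIIIC, went the other way, at 1.46 to 3.74 in A>A and 1.16 and 1.39 in A>C. Both were chosen after their values were seen, because their promoters hold the cyclic AMP response element (CRE, TGACGTCA, equal on both strands), the site of the activity-regulated factor CREB. The promoters run from 250 bases before to 50 after the start in RefSeq on GRCm38.p6, and capitals mark the CRE.
Pcsk1, chr13:75089607-75089906, plus strand: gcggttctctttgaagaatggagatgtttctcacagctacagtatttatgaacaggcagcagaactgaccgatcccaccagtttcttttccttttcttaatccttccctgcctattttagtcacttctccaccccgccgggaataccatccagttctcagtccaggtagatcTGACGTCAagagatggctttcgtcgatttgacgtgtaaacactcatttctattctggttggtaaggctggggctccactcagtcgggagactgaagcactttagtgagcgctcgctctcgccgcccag
Gtf3c1, chr7:125707639-125707938, minus strand: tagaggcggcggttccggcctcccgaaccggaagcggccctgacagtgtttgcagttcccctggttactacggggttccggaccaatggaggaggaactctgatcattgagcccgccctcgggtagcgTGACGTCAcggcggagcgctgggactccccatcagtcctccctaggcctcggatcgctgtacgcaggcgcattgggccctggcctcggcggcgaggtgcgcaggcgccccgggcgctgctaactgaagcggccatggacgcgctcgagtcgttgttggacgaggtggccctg

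The CRE was present in the promoters of 549 of 27025 genes (2.03%). A promoter was matched for only 187 of the 252 early genes (74.2%), and for 102 of the 129 late genes (79.1%), so the share within each list is void and is not read. Among the matched promoters, 13 early and 3 late genes held a CRE, and all of these but Pcsk1 and Gtf3c1 overlapped between contexts or had low levels. Zwint and Otud7a, early genes with a CRE, had higher mean levels in A>A, by 0.57 and 0.25. A match is a description and not a site of binding.

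IEG transcription factors are the first genes of the response. Of 22 such genes tested, 16 had a fold change below 0, with a median of -0.26, and 0 were higher and 1 lower at an unadjusted p under 0.05, beside 2.7% and 1.73% of all genes. The median ran from -0.63 to 0.05 when single mice were left out, and was above 0 only without A>C mouse 13. Their mean level was 2.11 and 2.39 in mice 15 and 16, 3.33 and 3.08 in mice 24 and 25, 1.61 and 1.72 in mice 26 and 27, and 2.81 and 2.40 in the A>C mice. Mice 24 and 25 were above A>C and mice 26 and 27 were lowest.

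Fos (chr12:85473890-85477273, plus strand, mm10), the gene behind the sort, was at 1.11, 2.07, 5.34, 2.71, 0.45 and 0.55 in mice 15, 16, 24, 25, 26 and 27 and at 2.94 and 2.56 in A>C. The A>A mice spanned the A>C values on both sides. Fos was above 1 in 37.5% of nuclei in both A>C mice and in 5.26% to 68.4% of nuclei in A>A mice (mean 30.3% ± 23.4 SD, n = 6, exact permutation p = 0.821), although every nucleus had been sorted for the protein. Its fold change was -1.58 ± 1.15 (log2 ± SE, adjusted p = 0.964), and it was -0.38 without A>C mouse 13 and -2.40 without mouse 24. Fosb, its close relative, was at 0.21 to 2.95 in A>A and at 2.83 and 1.57 in A>C.

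Junb, which encodes a FOS partner and was chosen after its values were seen, was at 4.36, 4.66, 6.40, 6.14, 3.48 and 3.6 in the A>A mice and at 5.97 and 5.25 in A>C. Its fold change was -1.04 ± 0.39, with an adjusted p of 0.933, and -0.62 without A>C mouse 13. Mice 15, 16, 26 and 27 lay below both A>C mice and mice 24 and 25 above them. Nr4a2, an orphan nuclear receptor, had the same order of sets, at 3.08, 4.64, 6.41, 5.65, 1.81 and 2.91 beside 6.45 and 3.23. Nr4a1, of the same family, was at 2.91 to 5.09 in A>A and at 3.24 and 3.83 in A>C. Egr1, a zinc-finger factor, had a fold change near 0, at 0.02 ± 1.08, since its A>A mice ranged from 0.57 to 5.48 around A>C values of 2.86 and 1.45.

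**Figure D2:**
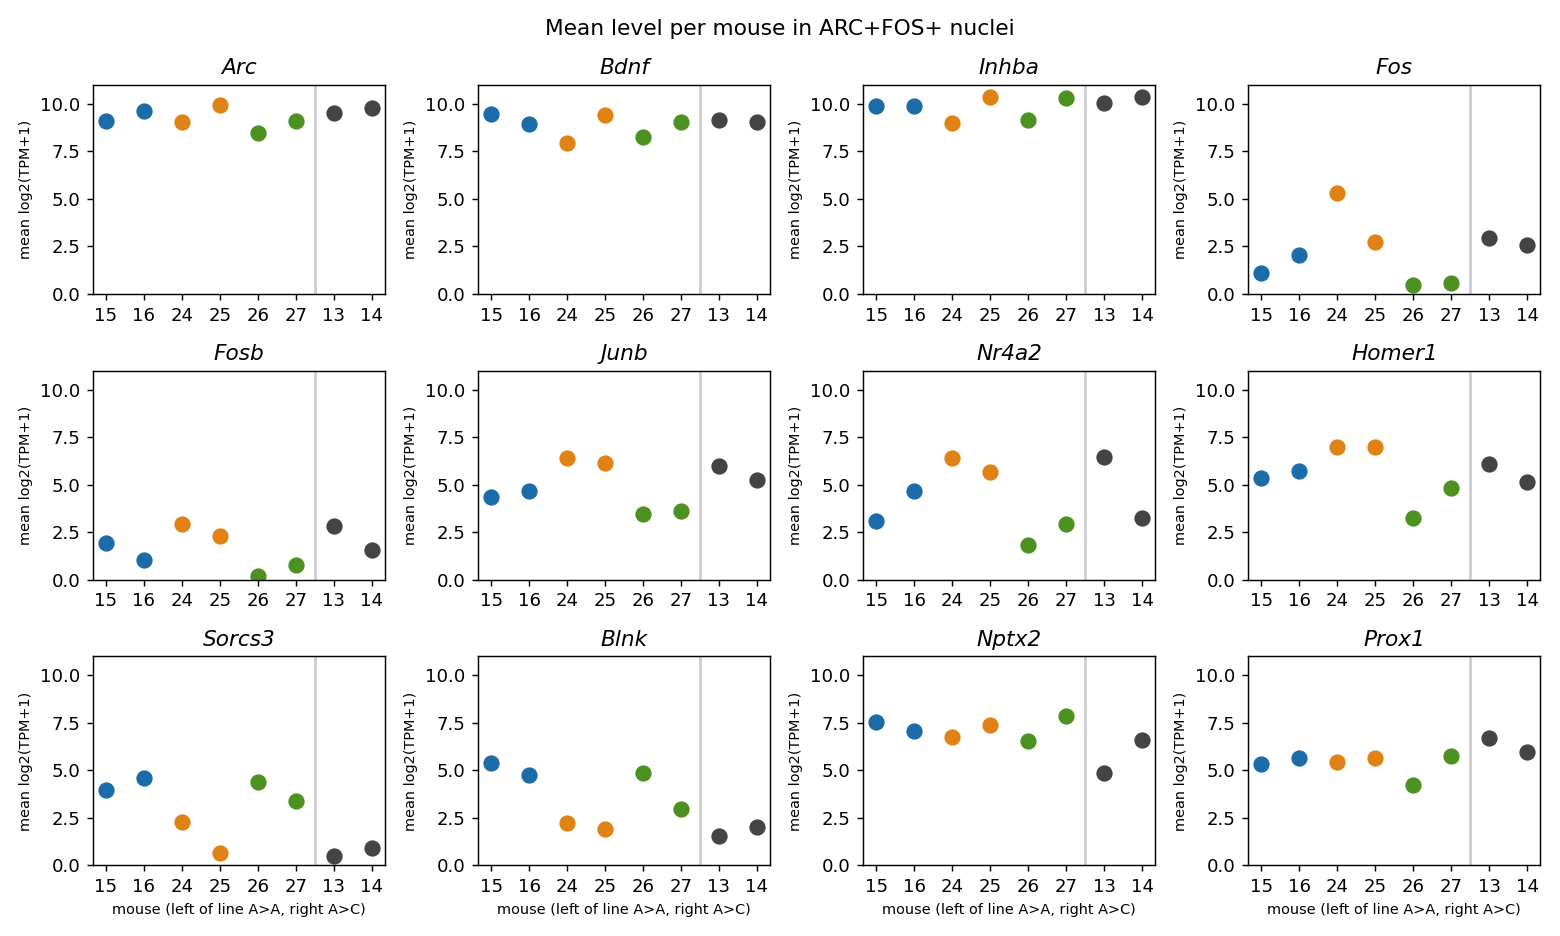
Mean log2(TPM+1) of 12 genes per mouse in ARC+FOS+ nuclei, A>A mice to the left of the grey line (blue X160622, orange X170525, green X021618) and A>C mice to the right (dark grey). Arc, Bdnf and Inhba were high in all 8 mice, whereas Fos, Junb, Nr4a2, Homer1, Sorcs3 and Blnk differed between the A>A sets.

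Genes that act outside the nucleus, at the synapse or as secreted factors, included several with high levels in all mice. Arc, the postsynaptic IEG whose protein was used in the sort, was at 8.48 to 9.92 in A>A and 9.53 and 9.81 in A>C. Bdnf, a neurotrophin, was at 7.92 to 9.46 and at 9.14 and 9.06, and Inhba, the activin A subunit, was at 9.01 to 10.4 and at 10.04 and 10.4. These 3 genes had fold changes of -0.44 ± 0.21, 0.05 ± 0.20 and -0.28 ± 0.25 and edgeR adjusted p of 0.933, 0.999 and 0.999, and limma on mean levels put Bdnf at -0.27. With single mice left out, Inhba ran from -0.38 to -0.18. Homer1, which encodes a postsynaptic scaffold, ranged more widely, at 3.23 to 7.01 in A>A around 6.10 and 5.12 in A>C.

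Of 33 activity effectors tested, 25 had a fold change below 0, with a median of -0.21, and 1 was higher and 1 lower at an unadjusted p under 0.05, beside 2.7% and 1.73% of all genes. Among 30 with a mean of at least 0.5, 6 were lower in A>A without overlap and 1 was higher, beside 3.27% and 4.91% of all genes. Gpr3, a constitutively active receptor, and Ptgs2, the inducible cyclooxygenase, were 2 of the 6 and were chosen after their values were seen. Gpr3 was at 3.90 to 6.74 in A>A and at 7.50 and 7.67 in A>C, and Ptgs2 at 5.72 to 6.80 and at 7.75 and 7.41. Their fold changes were -0.88 ± 0.52 and -0.56 ± 0.32, and without A>C mouse 14 they were -0.47 and -0.35.

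Nptx2, a secreted pentraxin that clusters AMPA receptors, was higher after the same environment in most mice. It was at 7.56, 7.06, 6.78, 7.39, 6.57 and 7.87 in A>A and at 4.85 and 6.62 in A>C. Only mouse 26 fell just below the higher A>C mouse. Its fold change was 1.19 ± 0.42 with an adjusted p of 0.933, and it was 0.70 without A>C mouse 13 and 1.96 without A>C mouse 14.

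Late genes had higher values after the same environment more often than all genes in the fit of 8 mice, but their median was not above that of all genes without A>C mouse 13. The late list, also drawn from other mice, holds genes changed at both 4 h and 5 h after a single exposure and not at 1 h. Of the 129 tested, 91 had a fold change above 0 (70.5%, beside 58.3% of all genes), with a median of 0.39 beside 0.17. Without A>C mouse 13 the late median was 0.39 beside 0.47 for all genes, and without A>C mouse 14 it was 0.50 beside 0.45. At an unadjusted p under 0.05, 20 were higher and 0 lower, against 2.7% and 1.73% of all genes. No late gene passed the adjusted threshold with edgeR, and 13 were called higher by DESeq2, beside 3.98% of the genes it tested.

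In 19 of the 129 late genes all A>A mice lay above both A>C mice (14.7%, beside 4.91% of all genes). In 2 all lay below (1.55%, beside 3.27%). With counts thinned to 100000 per nucleus, 12 late genes were higher without overlap (9.3%, beside 3.94%). Without mice 24 and 25 the number was 47 (36.4%, beside 12.7% of all genes, since fewer mice need to separate).

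The mean of the late list was 4.53 and 4.49 in mice 15 and 16, 3.38 and 3.32 in mice 24 and 25, 4.10 and 3.90 in mice 26 and 27, and 3.55 and 3.52 in the A>C mice. Mice 24 and 25 were below both A>C mice, and the other 4 A>A mice were above them. The list median of the fold changes was 0.50 for mice 15 and 16, 0.05 for mice 24 and 25 and 0.42 for mice 26 and 27, each against A>C. Nuclei sorted as ARC+FOS- had late means of 4.15 to 4.64 in A>A and of 4.50 to 5.22 in A>C.

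**Figure D3:**
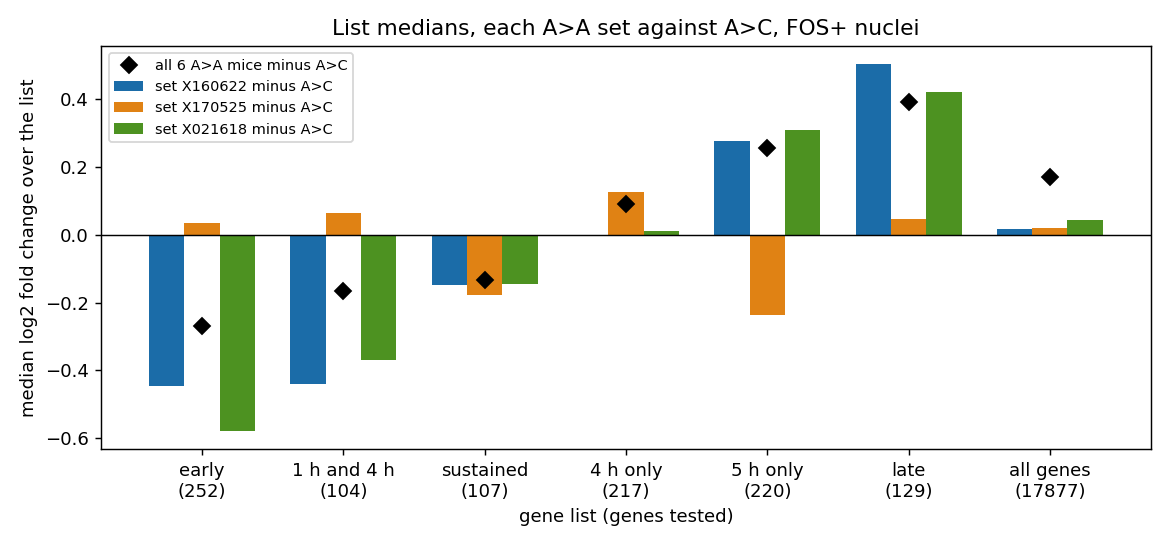
Median log2 fold change over the study's gene lists and over all genes tested for each A>A set against A>C (bars) and for all 6 A>A mice together (black diamonds). The early list was at -0.45, 0.04 and -0.58 and the late list at 0.50, 0.05 and 0.42 in the sets of mice 15 and 16, 24 and 25, and 26 and 27.

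Sorcs3 (chr19:48206025-48805505, plus strand, mm10), a receptor of the sortilin family, was the clearest of the late genes named by rule. It was at 3.96, 4.6, 2.27, 0.66, 4.40 and 3.41 in mice 15, 16, 24, 25, 26 and 27 and at 0.47 and 0.89 in A>C. Mouse 25 lay between the A>C mice and all other A>A mice lay above. Sorcs3 was above 1 in 13, 16, 7, 3, 13 and 13 nuclei of the A>A mice and in 2 and 4 of 24 nuclei of the A>C mice.

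The share of nuclei with Sorcs3 was 50.1% ± 21.4 in A>A (SD, n = 6) and 12.5% ± 5.89 in A>C (SD, n = 2), a difference of 37.6 percentage points (exact permutation p = 0.0714, BH-adjusted p = 0.5). With any count above 0, the shares were 73.1% ± 24.1 and 18.75% ± 2.95 without overlap (exact permutation p = 0.0357, BH-adjusted p = 0.125). With counts thinned to 100000 per nucleus they were 48.5% ± 22.1 and 12.5% ± 5.89 (exact permutation p = 0.0714). The fold change was 3.59 ± 1.13 (log2 ± SE), with an edgeR adjusted p of 0.912 and a DESeq2 adjusted p of 0.00495. It was 3.97 for mice 15 and 16, 1.73 for mice 24 and 25 and 4.10 for mice 26 and 27, each against A>C. Within A>A, mice 24 and 25 were 2.25 and 2.38 below the other sets on the same scale. In ARC+FOS- nuclei Sorcs3 was at 5.42 to 6.45 in A>A and 4.75 to 6.56 in A>C.

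Blnk (chr19:40928927-40994535, minus strand, mm10), an adaptor protein first known from B cells, likewise had its lowest A>A levels in mice 24 and 25. It was at 5.38, 4.76, 2.24, 1.90, 4.84 and 3.00 in the A>A mice and at 1.53 and 2.03 in A>C, with only mouse 25 between the A>C mice. Its fold change was 2.77 ± 0.91, with an edgeR adjusted p of 0.933 and a DESeq2 adjusted p of 0.0195. Blnk was above 1 in 18, 18, 7, 12, 15 and 16 nuclei of the A>A mice and in 8 and 10 of the A>C mice.

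Other late genes separated all A>A mice, those of the set of mice 24 and 25 included, and were chosen after their values were seen. Crtac1, a secreted calcium-binding protein, was at 3.89, 5.13, 2.06, 1.99, 2.61 and 3.41 in A>A and at 0.97 in both A>C mice, with a fold change of 2.32 ± 0.66 (adjusted p = 0.72). Kcnc4, a fast potassium channel, was at 4.06 to 5.97 in A>A and at 3.58 and 2.33 in A>C. Bhlhe41, a circadian repressor, was at 3.98 to 5.84 and at 3.43 and 3.50. The fold change of Kcnc4 was 1.33 ± 0.41, and it was 2.13 without A>C mouse 13 and 0.82 without A>C mouse 14. All 6 A>A mice were above both A>C mice for these genes, with edgeR adjusted p of 0.72 or more. The DESeq2 adjusted p was 0.0056 for Crtac1, 0.034 for Bhlhe41 and 0.052 for Kcnc4.

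The other late genes named by rule, Gabra4 and Acan, overlapped between contexts. Gabra4, a GABA-A receptor subunit, was at 4.69 to 7.39 in A>A and at 7.36 and 6.58 in A>C, with a fold change of -0.36 ± 0.35. Acan, the perineuronal net core protein, was at 2.31 to 4.08 and at 2.78 and 3.00, with a fold change of 0.97 ± 0.45. Tnik, a kinase of the synapse that is not on the late list, was at 5.86 to 8.60 and at 8.83 and 8.35, with a fold change of -0.08 ± 0.45. Without A>C mouse 13, Gabra4 was at -0.17 and Tnik at 0.08. None of the 3 passed the test.

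Single nuclei of the A>A mice spread along both lists. The 2 lists hold different genes, and their home-cage means were 2.26 (early) and 2.62 (late). An early mean above the late mean is thus a description and does not class a nucleus. In mice 15 and 16, 6 of 22 and 9 of 24 nuclei had an early mean above their late mean. In mice 26 and 27 these were 4 of 19 and 7 of 23, in mice 24 and 25 they were 12 of 19 and 20 of 23, and in the A>C mice 21 of 24 and 16 of 24. The late mean ran from 2.75 to 6.34 over nuclei of mouse 15 and from 2.82 to 4.81 over nuclei of A>C mouse 13.

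**Figure D4:**
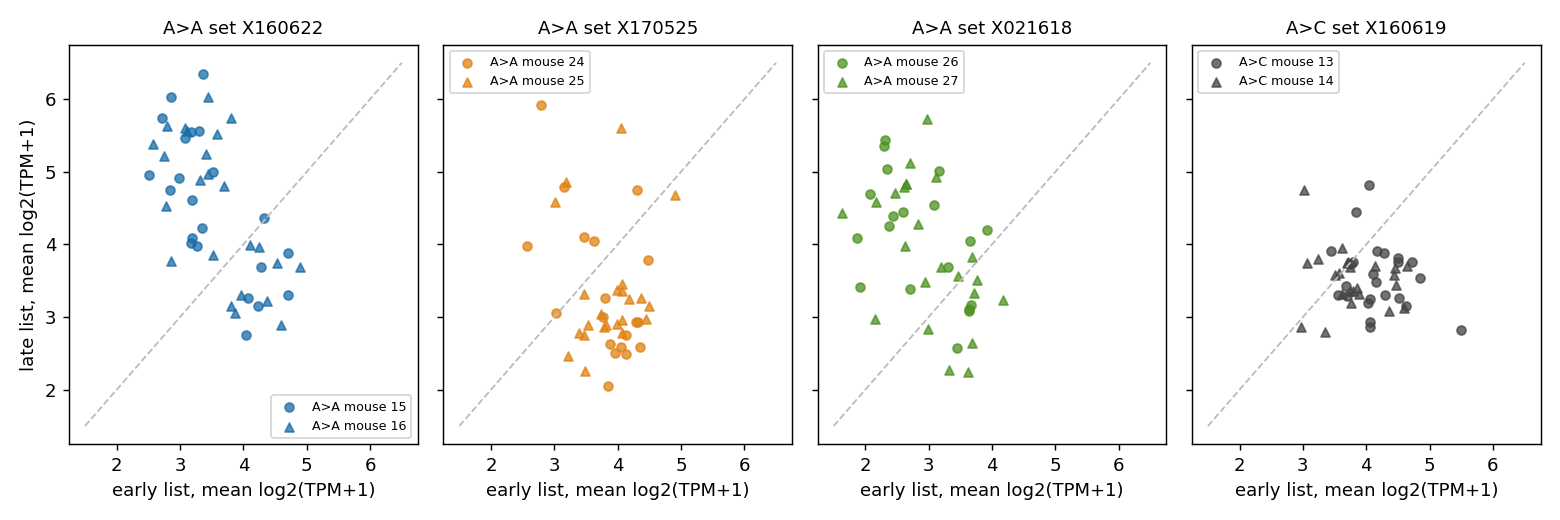
Early list mean against late list mean, both in log2(TPM+1), of every kept ARC+FOS+ nucleus, in a panel for each set, with a marker for each mouse and a dashed line of equality. The late mean reached 4.81 and 4.75 in nuclei of the A>C mice and 5.43 to 6.34 in nuclei of the A>A mice.

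Fos and Sorcs3 mRNA were compared nucleus by nucleus. Of 130 A>A nuclei, 15 had both above 1, 24 had Fos alone, 50 had Sorcs3 alone and 41 had neither. Of 48 A>C nuclei, 3 had both, 15 had Fos alone, 3 had Sorcs3 alone and 27 had neither. In mouse 24, 6 of the 7 nuclei with Sorcs3 also had Fos, whereas in mouse 26, 0 of the 13 did. Nuclei of a mouse are not replicates, so no test was made on these counts.

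Genes changed at all times after a single exposure form the sustained list. Of its 107 genes, 65 had a fold change below 0, with a median of -0.13, and 3 were higher and 3 lower at an unadjusted p under 0.05, beside 2.7% and 1.73% of all genes. In 12 of them all A>A mice were below both A>C mice and in 1 all were above, beside 3.27% and 4.91% of all genes. Tet3, a DNA demethylase chosen after its values were seen, was at 7.89 to 8.74 in A>A and at 9.11 and 9.52 in A>C. Of 104 genes changed at 1 h and 4 h, 66 were below 0 (median -0.17), with 16 lower and 2 higher without overlap, beside the same 3.27% and 4.91%. That median ran from -0.27 to -0.11 when single mice were left out. Of 217 genes changed only at 4 h, 128 were above 0 (59%, median 0.09), and of 220 changed only at 5 h, 135 were (61.4%, median 0.26), beside 58.3% of all genes. Without A>C mouse 13 these medians were 0.16 and 0.41, both below the 0.47 of all genes in that fit.

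Gene groups chosen by function rather than by the activity response, some of whose genes are also on the lists above, were counted at an unadjusted p under 0.05, which 2.7% of all genes passed as higher and 1.73% as lower. Of 24 glutamate receptor genes tested, 0 passed, and the same held for 14 GABA receptor, 20 postsynaptic scaffold and 24 synaptic vesicle genes. The medians of these lists were -0.16, 0.10, 0.19 and 0.15. Nuclear genes of the respiratory chain had a median of 0.40 over 89 genes, with 1 gene higher and 0 lower. Their mean level was 3.76, 3.29, 4.28, 4.78, 3.08 and 2.99 in A>A and 3.67 and 3.13 in A>C, so the A>A mice lay on both sides. The 19 circadian genes had a median of 0.74, with 2 higher and 0 lower, and the 83 ribosomal protein genes a median of 0.00, with 2 higher and 0 lower. Bhlhe41 is among the circadian genes. Of 28 adhesion genes (median -0.20), 0 were higher and 3 lower.

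The genes with the smallest p were present in few nuclei. Egln1, an oxygen-sensing prolyl hydroxylase, was above 1 in 1 to 3 nuclei of each A>A mouse and had 0 counts in both A>C mice. Against a floor of 3 counts over the A>C group, its summed counts were 326-fold higher in A>A. The floor covers counting error but not which nuclei were sampled, so this is not a lower bound on the difference. Egln1 was above 1 in 10 of 130 A>A nuclei and 0 of 48 A>C nuclei. The RNAs 1810026J23Rik, Gm12922 and Gm26892 were likewise at 0 counts in A>C. Against the same floor they were 488-fold, 37.9-fold and 295-fold higher in A>A. The remaining RNA, 3110035E14Rik, had 2 and 3 counts in A>C and 443 to 1991 in A>A.

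In the other direction, Kcnt1, a sodium-activated potassium channel, had 659 and 144 counts in the A>C mice and 1 count in all A>A mice together. It was above 1 in 4 of 48 A>C nuclei. Iba57, an iron-sulfur protein factor, had 526 and 46 counts in A>C and 1 to 10 in A>A, and Ttyh2, a membrane protein, had 193 and 120 and 1 to 14. Gm16958 and Gm38375 completed the 5. All 10 genes had an edgeR adjusted p of 0.286. DESeq2 called all 10, with an adjusted p from 2.1e-17 for 3110035E14Rik to 0.0052 for Gm16958. These values rest on a handful of nuclei per mouse.

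Nnt, a mitochondrial transhydrogenase gene altered in a C57BL6 substrain, was at 1.05 to 2.41 in A>A and at 1.58 and 1.36 in A>C. The A>C values lay within the A>A range.

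The difference between contexts in FOS+ nuclei was set beside that in ARC+FOS- nuclei of the same experiment in a fit of all 4 re-exposed groups. This fit had no term for mouse or set, so its errors treat all sums as independent. In A>C the FOS- nuclei came from mice 11 and 12 and the FOS+ nuclei from mice 13 and 14. Within A>C, FOS state and mouse therefore cannot be told apart. Of 20716 genes, 0 had a context difference that differed between FOS+ and FOS- at an adjusted p under 0.05, with 1100 genes at an unadjusted p under 0.05, and DESeq2 called 838. For FOS- nuclei alone the numbers were 0, 1063 and 640. The early list median was 0.12 in FOS- nuclei and the late list median 0.24, beside 0.20 for all 20716 genes. In FOS+ nuclei they were -0.27 and 0.39 beside 0.17. With limma on mean log2(TPM+1), the median over all 11270 genes in FOS- nuclei had the other sign, at -0.16. Sorcs3 had a fold change of 0.52 ± 0.71 in FOS- nuclei and a difference of 3.06 ± 1.02 between FOS+ and FOS- (adjusted p = 0.938). Some other genes described above had FOS- fold changes of the same sign as in FOS+ nuclei, at 1.08 ± 0.36 for Kcnc4, 1.13 ± 0.47 for Crtac1, 0.93 ± 0.52 for Nptx2 and 0.81 ± 0.38 for Bhlhe41. Others had the opposite sign in FOS- nuclei, at 0.97 ± 0.64 for Junb, 0.66 ± 0.34 for Arc, 0.46 ± 0.41 for Gabra4 and 0.22 ± 0.42 for Tet3. Their FOS+ values were -1.04, -0.44, -0.36 and -0.62. In mean log2(TPM+1), however, Gabra4 and Tet3 were lower in A>A in FOS- nuclei too, at 7.24 beside 7.78 and 4.54 beside 5.36 in A>C.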

How the data were processed

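The data are single-nucleus SmartSeq2 libraries. Per the labels and the study's methods, the authors aligned reads with Bowtie and quantified them with RSEM against mm10, and versions were not given in the sources used here. The expected counts were deposited by the authors as whole numbers over 42802 genes and were rounded before use. The log2(TPM+1) values were computed and deposited by the authors over 40221 genes. No mitochondrially encoded gene was in the tables, so their share was not computed. The count table of the first set held 277 columns of other nuclei that were not used.

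Counts were summed, and log2 values averaged, over the kept nuclei of each mouse, which is the replicate. Whether mice of a set shared a litter or cage is not given in the sources used here. Sums were tested with edgeR 4.0.16 (TMM, filterByExpr, glmQLFit and glmQLFTest) in R 4.3.3 with Benjamini-Hochberg adjustment over all genes and a threshold of 0.05. Alternatives were DESeq2 1.42.0, DESeq2 size factors in edgeR, no low-count filter, limma 3.58.1 on mean log2(TPM+1) for genes with a mean of at least 0.5, at least 100000 aligned reads, all DG groups in a single fit, each A>A set alone, counts thinned to 100000, and each mouse left out. The code was tested on simulated data. The simulated counts had less dispersion, the variation between mice beyond counting, than the 8 sums, whose common dispersion was 1.61. The simulation therefore does not show what size of difference could be found here. Counts include PCR copies, so depth and floors cover counting error only.

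Named genes were the 5 with the smallest p each way and a list of genes, of which 18 are given and 1 is not reported here. Genes past the threshold were to be added, but there were none. Other named genes are marked in the text. Members, lists and tests were chosen with earlier results of these data known. The study's own expression tests used nuclei as replicates. Gene positions are from GENCODE vM21 on GRCm38, the same assembly as mm10, joined by symbol. No 2 of the count columns of the 178 kept nuclei were identical (0 duplicates).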

Additional observations from a re-analysis of the deposited data

Results flagged for a closer look

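Of 55 values examined over the 6 A>A mice, 4 had a mouse far from the others, where chance gives about 1 in 20. Prox1 was at 4.23 in mouse 26 and at 5.36 to 5.75 in the other A>A mice. The RNA 1810026J23Rik was at 1.34 in mouse 27 and at 0.374 to 0.686 in the others. Kcnt1 and Gm16958 were each at 0.0429 in mouse 27 and at most 0.00224 in the other A>A mice, which is 1 count.

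Blnk was singled out because its mean levels lay on opposite sides in the 2 kinds of nuclei. All 6 A>A mice were above the A>C mean in FOS+ nuclei, by 1.91 log2(TPM+1) on average, and all 6 were below it in FOS- nuclei, by -1.01. The FOS- mice of both contexts overlapped, at 2.58 to 4.60 in A>A and 3.77 to 5.91 in A>C. In the edgeR fit of summed counts the FOS- fold change had the other sign, at 0.37 ± 0.77 (log2 ± SE, adjusted p = 1), and the difference between FOS+ and FOS- was 2.39 ± 1.09 (log2 ± SE, adjusted p = 0.938).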

How the results depend on the processing

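No paired analysis was possible because no mouse gave nuclei to both contexts. DESeq2 called 736 genes between contexts, where edgeR with TMM, with DESeq2 size factors or without the low-count filter, and limma, called 0, and the cause was not tested. For the sets of mice 15 and 16, 24 and 25, and 26 and 27 against A>C it called 876, 1228 and 1268, and between A>A sets 1248, 1001 and 1614. In FOS- nuclei it called 640, and 838 for the difference between FOS+ and FOS-. limma called 5 genes in each of the 3 contrasts that involve mice 26 and 27, and 3 in FOS- nuclei. With each of the 8 FOS+ mice left out, the context count stayed at 0. For the FOS- contrast only A>C mice 11 and 12 were left out, which gave 0 to 1 genes, and for the difference only A>C mice 11 to 14, which gave 0 to 2.

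List medians moved beyond the spread between mice in these cases. With mice 24 and 25 as the only A>A mice, the late median was 0.026, the 5 h list -0.26, the IEG factors 0.39 and the activity effectors 0.087. With mice 26 and 27 alone, the early median was -0.59 and the IEG factors -1.05. With mice 15 and 16 alone, the 1 h and 4 h list was at -0.43. The sustained median was -0.24 with limma. Alternatives added after the data were seen left out each A>A set from the counts of genes without overlap. Early genes lower in A>A numbered 58 without mice 15 and 16 (23.2%, beside 7.58% of all genes), 81 without mice 24 and 25 (32.4%, beside 6.82%) and 41 without mice 26 and 27 (16.4%, beside 5.13%). Late genes higher in A>A numbered 20 without mice 15 and 16 (15.5%, beside 7.68%), where 12 were lower (9.3%, beside 7.58%), 47 without mice 24 and 25 (36.4%, beside 12.7%), 24 without mice 26 and 27 (18.6%, beside 8.94%) and 12 after thinning (9.3%, beside 3.94%).

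Fold changes of these genes changed sign, none of them past the threshold. With mice 24 and 25 alone, Fosb was at 0.089, Nr4a2 at 0.34 and Tnik at 0.42. With mice 15 and 16 alone, Egr1 was at -0.73 and Homer1 at -0.44. With mice 26 and 27 alone, Egr1 was at -2.02, Bdnf at -0.041, Homer1 at -1.29 and Nnt at 0.78. With limma, Nr4a1 was at 0.28, Bdnf at -0.27, Homer1 at -0.087, Bcl11b at 0.051 and Nnt at 0.078. After thinning, Bdnf was at -0.12 and Homer1 at -0.0085. With single mice left out, Fosb ran from -1.48 to 0.20, Egr1 from -0.67 to 1.41, Nr4a2 from -0.94 to 0.050, Bdnf from -0.025 to 0.12, Homer1 from -0.30 to 0.23, Tnik from -0.28 to 0.082, Bcl11b from -1.01 to 0.79 and Nnt from -1.56 to 1.02. The difference in the share of nuclei with Arc ran from -2.48 to 1.69 percentage points and that with Nr4a1 from -6.75 to 9.91.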
